A study of Drosophila melanogaster with 8 samples.

Results

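The comparison set cells that received guide RNAs to the promoters of both twist (twi) and snail (sna) against cells that received control guides. The cells were S2R+, an adherent Drosophila line with hemocyte-like features, and every group carried Actin:dCas9-VPR, a nuclease-dead Cas9 fused to an activation domain and driven by an actin promoter. The libraries titled dCas9-VPR>Twist&Snail 1 and 2 (both pools) and dCas9-VPR>Quas 1 and 2 (control guides) were chosen by title, which makes 4 of the 8 libraries, 2 a side. The other 4 libraries held cells with guides to Twist alone or to Snail alone, 2 of each, and entered the same fit. Each gene's pool held 5 guides to its upstream region. Per its sample labels the control pool was aimed at a luciferase reporter's promoter, whereas the treatment protocol calls the control a single non-targeting guide. RNA came from whole transfected cultures and the share of cells that took up the plasmids is not given, so fewer cells with a transcript and less of it per cell cannot be told apart.

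Twist is a basic helix-loop-helix activator that sets up the mesoderm of the fly embryo, and Snail is a zinc-finger repressor that Twist switches on and that keeps ectodermal genes off in the same cells. Together they drive the folding of the mesoderm into the embryo, and their vertebrate relatives are known for the epithelial-to-mesenchymal transition. Twist targets include receptors and adhesion proteins of the mesoderm, among them the FGF receptor Heartless, while Snail keeps FGF ligands and neuroectodermal regulators off.

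The 4 libraries held 10752993 to 12219683 counts, and all 8 held up to 13351166. The 2 control libraries were the least alike pair. Between them, levels varied across genes 25.08 times as much (in variance) as counting error gives, against 3.49 for both pools, 6.52 for Twist guides and 3.63 for Snail guides. The libraries also differed in how levels ran with transcript length. The Spearman correlation across genes of a library's level, relative to the mean of all 8, with length was -0.291 and 0.258 in the controls and 0.258 and 0.059 with both pools. Control replicate 2 and both libraries with both pools were thus on the positive side, and control replicate 1 was on the negative side. The log2 difference between the groups ran with length at a correlation of 0.077. The hemocyte label held in part. The GATA factor serpent (srp) was at 151 and 176 CPM in control and 139.6 and 134 CPM with both pools, and the phagocytosis receptor croquemort (crq) at 189 and 202 CPM in control and 188 and 196 CPM with both pools. The receptors nimC1 and eater and the hemocyte surface protein He were at most 0.416 CPM in these 4 libraries.

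Of 8029 genes tested, 126 passed an adjusted p of 0.05 with both pools against control (1.57%), 94 of them higher (1.17%) and 32 lower (0.399%). The rises were the larger changes and had lower control levels than the falls. The control level enters the difference that sorts rises from falls, so this contrast in level is partly built in. The rises had a median difference of 1.03 on the log2 scale and a median control level of 7.94 CPM, against 44.8 CPM over all tested genes. A control mean under 1 CPM was found in 17 of the 94, against 428 of the 8029 tested. The falls had a median of -0.50 and a median control level of 92.4 CPM, and 1 of the 32, the mannosidase LManII, fell by over 1 on the log2 scale. Of the rises, 49 were over 1 and 18 over 2 on the log2 scale. The 4 rises with no control counts are above the median rise at their lower bounds. These 4 passed the filter on low counts only through libraries of the other groups. That also holds for other rises with few control counts, among them sna, esg, qsm, PGRP-LB, pyr, CG17032, Rbp6 and dpr18. The filter thus also shapes the share of rises with a control mean under 1 CPM. The median over all tested genes was -0.006, and 3898 of the 8029 lay above 0. That share is the baseline for the counts above 0 given for lists below. In every called gene the libraries of the 2 groups did not overlap, as was also so for 3546 of the 8029 tested. At an unadjusted p of 0.05, 1325 genes passed. DESeq2 called 162 genes, 101 higher and 61 lower, and shared 104 with the 126.

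**Figure D1:**
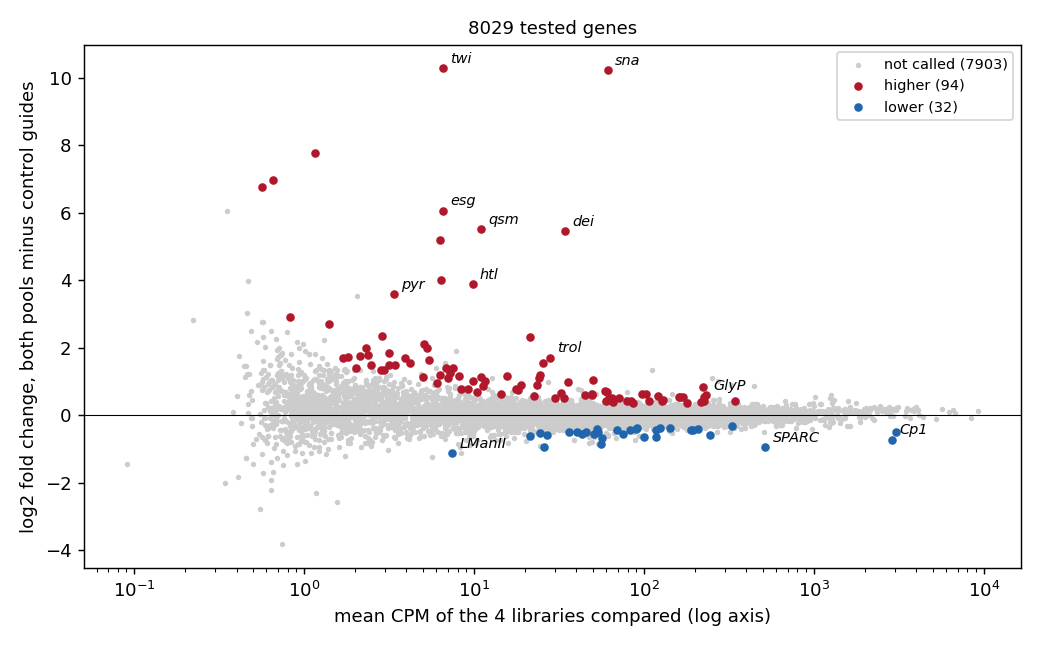
Each point is a tested gene, with its mean level over the 4 libraries (CPM, log axis) against its log2 difference, both pools minus control guides. Red points rose (94), blue points fell (32) and grey points did not pass. The rises reach 10.28 and the lowest fall is -1.12. For twi, acj6, ect and CG42741, which had no control counts, the height depends on the prior of the fit.

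The number of calls depended on single libraries. Without replicate 1 or 2 of both pools, 35 or 30 genes passed, and without replicate 1 or 2 of the Snail guides 63 in each case. Without control replicate 1 or 2, 1148 or 547 passed. In all 8 fits with 1 library left out, 24 of the rises and 1 of the falls, CG6805, were called. Where such a fit ended the call of a gene described below, the library is named with the adjusted p in brackets.

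Both targets rose from at or near no counts. twi (chromosome 2R, 22985374 to 23048325 in BDGP6.54) had no counts in either control library and stood at 13.7 and 12.7 CPM with both pools. With a floor of 3 counts over the control libraries, it was at least 95.3-fold higher (adjusted p = 8.5e-07). Its level was 26.3 and 28.2 CPM with Twist guides alone, and both pools lay below that with a log2 difference of -1.05 (adjusted p = 0.0071), not called without replicate 1 (0.1) or 2 (0.2) of both pools or replicate 2 (0.11) of the Twist guides. sna (chromosome 2L, 15476593 to 15478260) had 2 counts in the controls together and was at 124 and 122 CPM with both pools, a ratio of 1333 with a counting interval of 369 to 11011 (adjusted p = 5.4e-11). Snail guides alone gave 97.1 and 102 CPM, and the difference of both pools from them was 0.31 (adjusted p = 0.14). Whether each pool was used at the same amount alone and in the combination is not stated. CG42741, listed within the twi locus on the opposite strand, went from no counts to 1.25 and 1.02 CPM, at least 8.24-fold (adjusted p = 0.02, not called without replicate 1 (0.13) or 2 (0.11) of both pools). Whether the counting used strand is not given, so reads of twi and CG42741 cannot be told apart where they overlap.

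escargot (esg), a Snail-family zinc-finger gene, was at 0.183 and 0.186 CPM in the control libraries and 12.6 and 13.5 CPM with both pools. Every library with both pools lay far above the controls, at a difference of 6.06 ± 0.34 (adjusted p = 4.4e-07) on the log2 scale. esg reached 8.19 and 7.84 CPM with Snail guides and 0.61 and 1.03 CPM with Twist guides, and the difference of both pools from Twist guides was 3.97 (adjusted p = 3.0e-06), from Snail guides 0.70 (adjusted p = 0.082). dei (taxi), a basic helix-loop-helix gene of tendon cells, rose from 1.65 and 1.39 CPM to 64.4 and 69.5 CPM, by 5.45 ± 0.22 (adjusted p = 4.0e-07). The level with Twist guides alone was 134 and 97.3 CPM, and 2.61 and 2.08 CPM with Snail guides. The difference of both pools from Twist guides was -0.79 (adjusted p = 0.027), not called without replicate 1 (0.16) or 2 (0.32) of both pools or replicate 1 (0.057) or 2 (0.06) of the Snail guides. acj6, a POU-domain gene known from olfactory neurons, had no control counts and 2.66 and 1.94 CPM with both pools, at least 16.8-fold (adjusted p = 0.0037).

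The corepressor gene nervy (nvy), a relative of the mammalian ETO genes, was at 2.29 and 1.95 CPM in the control libraries and 9.99 and 7.02 CPM with both pools. It rose by 2.01 ± 0.23 (adjusted p = 0.00068) and was higher still with Twist guides alone at 26 and 27 CPM, a difference of -1.63 (adjusted p = 0.00029) for both pools against them. The homeobox gene buttonless (btn), which marks dorsal median cells of the mesoderm, showed the same order, with 2.2 and 1.11 CPM in control, 5 and 4.34 with both pools and 15.5 and 19.7 with Twist guides. Its difference from control was 1.49 ± 0.31 (adjusted p = 0.032), not called without replicate 1 (0.25) or 2 (0.15) of both pools, replicate 2 (0.051) of the control or replicate 1 (0.059) or 2 (0.059) of the Snail guides. CG17181 (Kahuli), another zinc-finger gene of the wider Snail superfamily, rose from 16.7 and 15.8 to 30.9 and 30.1 CPM, by 0.91 ± 0.12 (adjusted p = 0.0021). btn and CG17181 were chosen after their values were seen. Of the 6 tested members of a list of Snail relatives and cofactors, 1 rose, esg, against 1.17% of all tested genes; the median was 0.03. The cofactor CtBP was at 213 and 185 CPM in control and 208 and 216 CPM with both pools, and gro at 233 and 212 CPM in control and 221 and 214 CPM with both pools.

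Receptor and ligand of the mesodermal FGF pathway were both raised. heartless (htl, chromosome 3R, 18045216 to 18052984), the FGF receptor of the mesoderm, was at 1.65 and 0.835 CPM in the control libraries and 19.9 and 16.9 CPM with both pools. pyramus (pyr, chromosome 2R, 11712263 to 11726345), 1 of its FGF8-like ligands, was at 0.366 and 0.649 CPM in the control libraries and 6.58 and 5.91 CPM with both pools. Neither gene's groups came near each other. The differences were 3.88 ± 0.23 (adjusted p = 8.2e-07) for htl and 3.60 ± 0.36 (adjusted p = 0.00018) for pyr. With single pools, htl was at 19.9 and 18.1 CPM under Twist guides and 8.1 and 8.17 CPM under Snail guides, while pyr was at 0.61 and 1.1 CPM with Twist guides and 8.91 and 11.4 CPM with Snail guides. The high libraries of pyr were thus those with Snail guides. The other ligand, thisbe (ths), was at 0.275 and 0.186 CPM in control and 1.25 and 0.647 CPM with both pools and did not pass. htl and pyr were the 2 of 23 tested FGF and EGF pathway genes that rose, against 1.17% of all tested genes, and none fell. The list's median was 0.05. On a list of genes that Snail represses in the embryo, pyr was also the 1 of 10 that rose, against 1.17% of all tested genes, and none fell, with a median of 0.20.

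On a list of 14 tested mesoderm genes with Twist input, 3 rose, against 1.17% of all tested genes, and none fell, and the median was 0.14. Beside htl these were kon-tiki (kon), a transmembrane proteoglycan that guides muscles to tendons, and inflated (if), the integrin alphaPS2 chain. kon was at 0.916 and 0.928 CPM in the control libraries and 4.5 and 5.08 CPM with both pools, a difference of 2.36 ± 0.34 (adjusted p = 0.0032). if was at 4.49 and 3.71 CPM in the control libraries and 12.5 and 9.33 CPM with both pools, a difference of 1.41 ± 0.24 (adjusted p = 0.011), not called without replicate 1 (0.14) of both pools. With single pools it stood at 9.07 and 12.5 CPM with Twist guides and 11.9 and 9.26 CPM with Snail guides. tinman (tin), a homeobox gene of heart and visceral mesoderm, was at 0.641 and 0.742 CPM in control and 1.08 and 0.924 CPM with both pools, and the muscle factor Mef2 at 38.6 and 52.3 CPM in control and 39.1 and 41.7 CPM with both pools. Neither of these passed.

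CCKLR-17D3, a receptor for the peptide drosulfakinin, was at 1.01 and 0.464 CPM in the control libraries and 11.7 and 12.4 CPM with both pools, a difference of 4.01 ± 0.40 (adjusted p = 0.00075). Ggamma30A, a G protein gamma subunit known from phototransduction, was at 2.38 and 1.39 CPM in the control libraries and 8.33 and 8.13 CPM with both pools, a difference of 2.12 ± 0.28 (adjusted p = 0.0019). Its libraries with Twist guides were at the control level (2.29 and 1.4 CPM). qsm (quasimodo), a membrane-anchored zona pellucida protein that acts in the light input to the clock, went from 0.641 and 0.278 to 22.1 and 21 CPM, by 5.51 ± 0.38 (adjusted p = 4.6e-05). PGRP-LB, an amidase that degrades peptidoglycan and dampens the Imd pathway, went from 0.183 and 0.464 to 12.2 and 12.3 CPM, by 5.20 ± 0.35 (adjusted p = 2.4e-06). pirk, another brake on Imd, was at 48.3 and 40.3 CPM in the control libraries and 66.6 and 79.9 CPM with both pools, a difference of 0.72 ± 0.11 (adjusted p = 0.0048), not called without replicate 2 (0.13) of both pools. PGRP-LB and pirk were the 2 of 18 tested innate immune genes that rose, against 1.17% of all tested genes, none fell, and the median was -0.04. serrano (sano), a planar polarity gene, rose from 7.23 and 7.05 to 35.6 and 35.3 CPM, by 2.31 ± 0.11 (adjusted p = 1.4e-07).

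ect had no control counts and 1.33 and 1.29 CPM with both pools, at least 9.5-fold (adjusted p = 0.008, not called without replicate 1 (0.056) or 2 (0.051) of both pools). Among the 20 largest rises were also CG9150, CG17032 and Rbp6, the last a Musashi-like RNA-binding protein gene. CG9150 stood at 1.01 and 0.835 CPM in the control libraries and 4.16 and 3.23 CPM with both pools, a difference of 2.00 ± 0.37 (adjusted p = 0.019), not called without replicate 1 (0.18) or 2 (0.074) of both pools. CG17032 stood at 0.0916 and 0.649 CPM in the control libraries and 2.75 and 2.12 CPM with both pools, a difference of 2.70 ± 0.54 (adjusted p = 0.027), not called without replicate 1 (0.23) or 2 (0.11) of both pools or replicate 1 (0.0504) or 2 (0.052) of the Snail guides. Rbp6 stood at 0.275 and 0.0928 CPM in the control libraries and 0.999 and 1.94 CPM with both pools, a difference of 2.91 ± 0.65 (adjusted p = 0.047), not called without replicate 1 (0.073) or 2 (0.45) of both pools, replicate 2 (0.079) of the control, replicate 1 (0.066) or 2 (0.065) of the Twist guides or replicate 1 (0.093) or 2 (0.095) of the Snail guides. With DESeq2, Rbp6 was not called (adjusted p = 0.21).

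**Figure D2:**
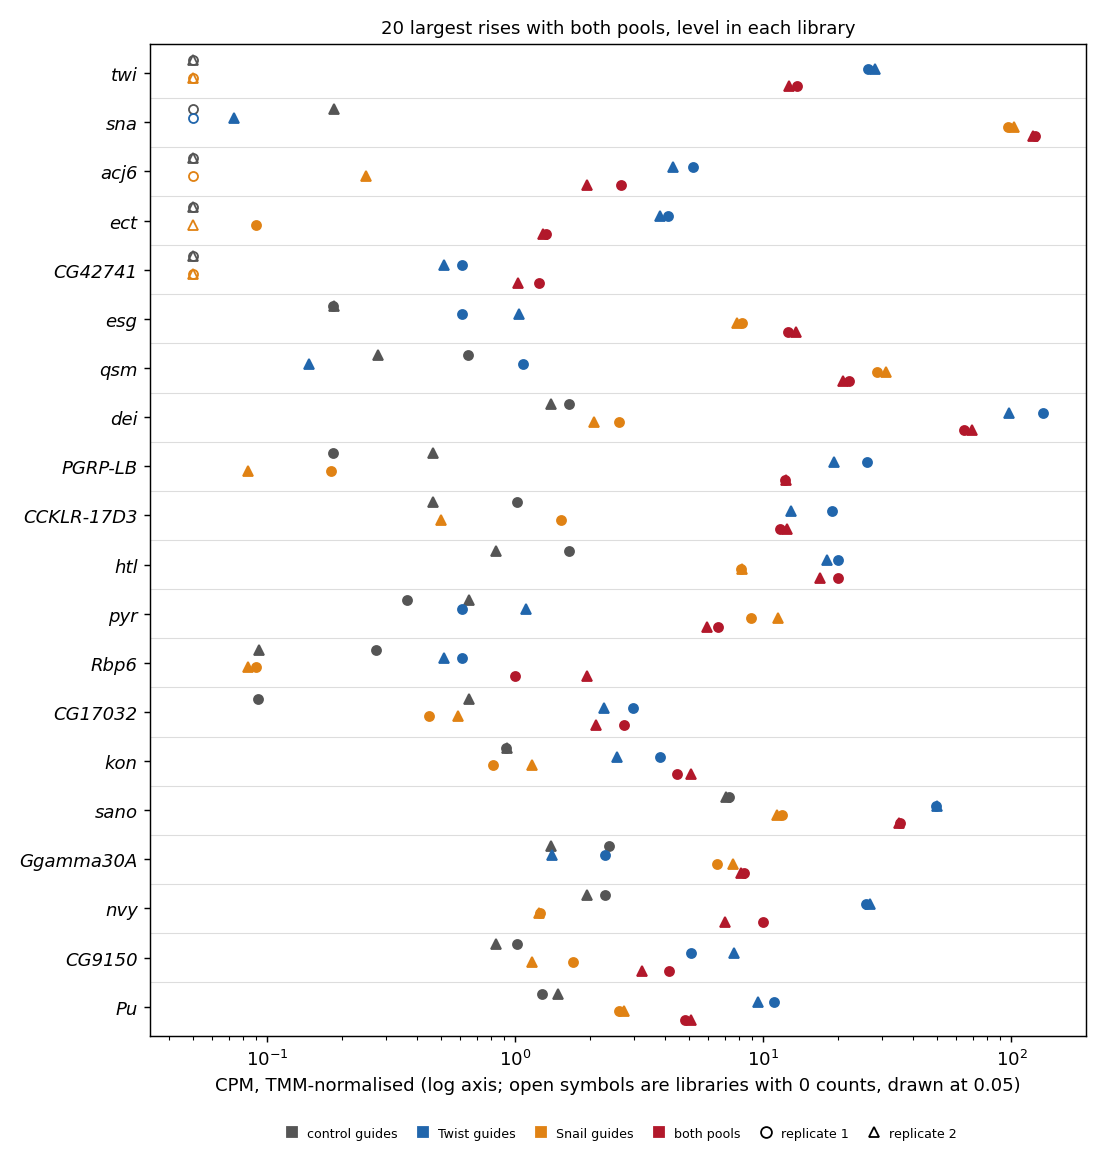
Level in each library (CPM, log axis) of the 20 largest rises, with control guides in grey, Twist guides in blue, Snail guides in orange and both pools in red. Circles are replicate 1 and triangles replicate 2, and open symbols are libraries with 0 counts. In each of the 20 genes both red points lie to the right of both grey points, and the orange points of twi, dei and PGRP-LB and the blue points of sna, qsm and pyr lie near the grey.

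Some genes of trehalose uptake, trehalose splitting and glycogen breakdown rose by small amounts. Flies carry trehalose as their blood sugar, take it up through trehalose transporters, split it with trehalase and store glucose as glycogen. Of 24 listed genes of trehalose, glycogen and sugar transport, 16 passed the filter on low counts. Of these, 4 rose, against 1.17% of all tested genes, and none fell; the median was 0.23 and 13 of 16 lay above 0. The transporter gene Tret1-2 was at 80.7 and 72.3 CPM in the control libraries and 117 and 121 CPM with both pools, and rose by 0.64 ± 0.09 (adjusted p = 0.0041), not called without replicate 2 (0.075) of both pools. Tret1-1 was at 105 and 115 CPM in the control libraries and 144 and 149 CPM with both pools, and rose by 0.41 ± 0.08 (adjusted p = 0.025), not called without replicate 1 (0.14) or 2 (0.3) of both pools or replicate 1 (0.057) or 2 (0.057) of the Snail guides. The pair are near copies, so the authors' counting may have split reads between them. Trehalase (Treh, chromosome 2R, 21074018 to 21088945) was at 196 and 187 CPM in the control libraries and 253 and 266 CPM with both pools, with every both-pools library above every other library. It rose by 0.44 ± 0.09 (adjusted p = 0.036), not called without replicate 1 (0.16) or 2 (0.37) of both pools or replicate 1 (0.077) or 2 (0.079) of the Snail guides.

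GlyP (chromosome 2L, 2130813 to 2137296), the glycogen phosphorylase that frees glucose from glycogen, was at 177 and 192 CPM in the control libraries and 272 and 284 CPM with both pools. The lowest library with both pools was above the highest of the other 6, which ran from 177 to 231 CPM. The same order held in Tret1-1, Tret1-2, CG9619, Pfk, Hex-A and ImpL3. GlyP rose by 0.59 ± 0.10 (adjusted p = 0.0099), not called without replicate 1 (0.066) or 2 (0.13) of both pools. CG9619 (Gbs-76A), a subunit that targets protein phosphatase 1 to glycogen, was outside the list and chosen after its values were seen. It was at 35.4 and 35.3 CPM in the control libraries and 52.8 and 55.4 CPM with both pools, a difference of 0.61 ± 0.11 (adjusted p = 0.017), not called without replicate 1 (0.1) or 2 (0.2) of both pools. Glycogenin, the primer of glycogen, was at 11.1 and 14.3 CPM in the control libraries and 19.5 and 21.6 CPM with both pools and did not pass (0.69 ± 0.17, adjusted p = 0.072). Glycogenin was likewise chosen after its values were seen.

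Of 19 listed genes of glycolysis and lactate, 18 passed the filter. Of these, 1 rose, against 1.17% of all tested genes, and none fell. The median was 0.21 and 14 of 18 lay above 0, against 3898 of 8029 tested genes. The riser was Pfk, phosphofructokinase, the committed step, at 188 and 179.8 CPM in the control libraries and 257 and 277 CPM with both pools. It rose by 0.54 ± 0.09 (adjusted p = 0.0086), not called without replicate 1 (0.0502) or 2 (0.16) of both pools. The first enzyme, hexokinase Hex-A, was at 400.2 and 399 CPM in the control libraries and 504 and 507 CPM with both pools and did not pass (0.34 ± 0.09, adjusted p = 0.089), nor did Pgi, the isomerase between them, at 196 and 189 CPM in the control libraries and 230.2 and 247 CPM with both pools (0.31 ± 0.08, adjusted p = 0.09). ImpL3, lactate dehydrogenase, spread widely between the control replicates. Its levels were 904 and 740.3 CPM in the control libraries and 1136 and 1265 CPM with both pools, a difference of 0.55 ± 0.17 (adjusted p = 0.17). Pepck, of gluconeogenesis, was at 257 and 240.5 CPM in the control libraries and 213 and 199 CPM with both pools (-0.27 ± 0.08, adjusted p = 0.097). DESeq2 called ImpL3 (adjusted p = 0.0086) and Hex-A (adjusted p = 0.046) but not Pgi (adjusted p = 0.095) or Pepck (adjusted p = 0.11). Hex-A, Pgi, ImpL3 and Pepck were chosen after their values were seen, and members of the glycolysis list ran from -0.28 to 0.55. Against Twist guides, Treh differed by 0.53 (adjusted p = 0.021), not called without replicate 1 (0.11) or 2 (0.34) of both pools, replicate 2 (0.28) of the Twist guides or replicate 1 (0.058) or 2 (0.06) of the Snail guides. GlyP differed from them by 0.48 (adjusted p = 0.038), not called without replicate 1 (0.15) or 2 (0.44) of both pools, replicate 2 (0.52) of the Twist guides or replicate 1 (0.074) or 2 (0.075) of the Snail guides. The differences of these genes and of Tret1-1, Tret1-2 and Pfk from Snail guides did not pass, at 0.09 to 0.33. Against Twist guides and against Snail guides in turn, 84 (1.05%) and 73 (0.909%) of the tested genes passed, and these comparisons use the same both-pools libraries.

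**Figure D3:**
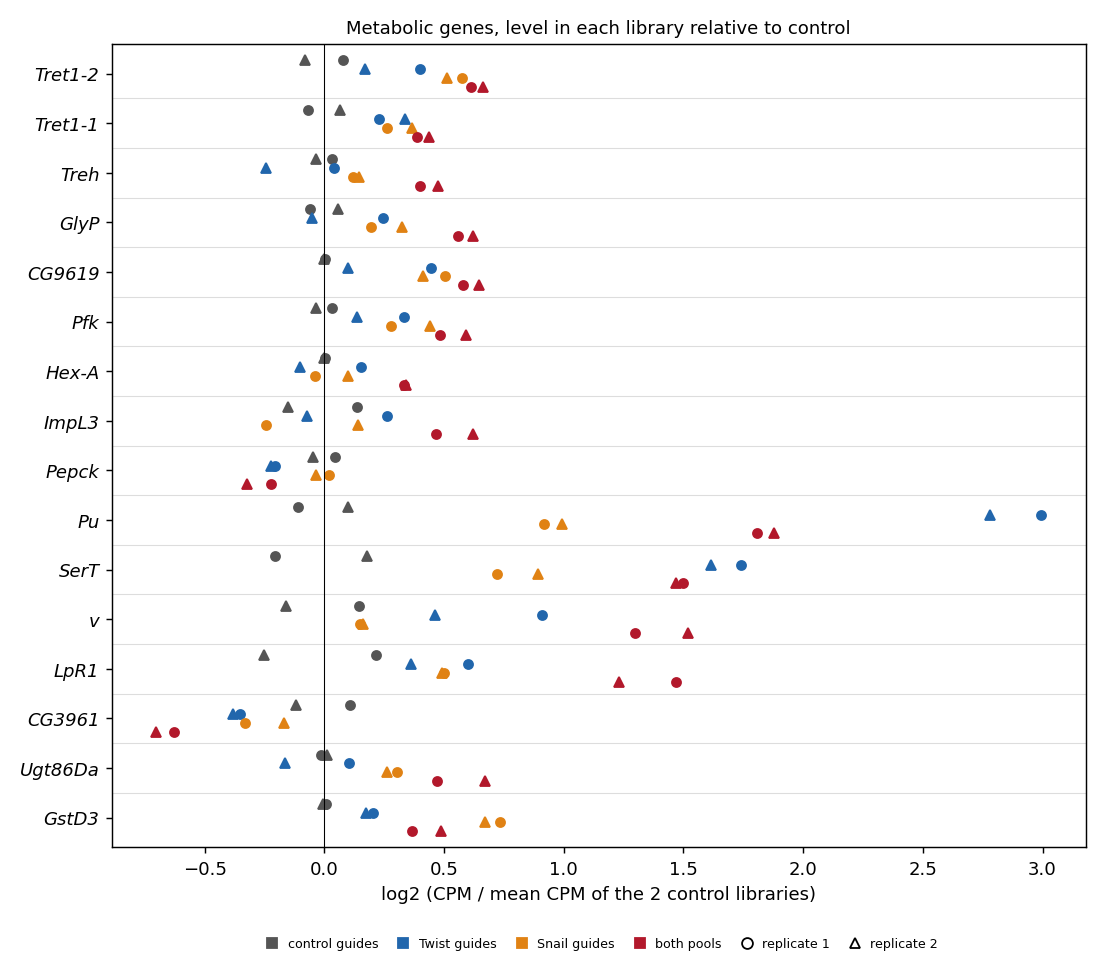
Level of 16 metabolic genes in each library as log2 of CPM over the mean of the 2 control libraries, with colours and symbols by group and replicate. The red points of Treh, GlyP, Pfk, Hex-A, ImpL3, v, LpR1, Ugt86Da, Tret1-1, Tret1-2 and CG9619 lie to the right of all others. Those of CG3961 lie to the left, and those of Pu and SerT lie left of the Twist-guide points. Hex-A, ImpL3 and Pepck did not pass in the reported fit, though DESeq2 called Hex-A and ImpL3.

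Punch (Pu), GTP cyclohydrolase, which opens pteridine and tetrahydrobiopterin synthesis, was at 1.28 and 1.48 CPM in the control libraries and 4.83 and 5.08 CPM with both pools. It rose by 1.83 ± 0.26 (adjusted p = 0.003) and stood at 11 and 9.47 CPM with Twist guides alone, where both pools against them gave -1.04 (adjusted p = 0.025), not called without replicate 1 (0.16) or 2 (0.34) of both pools, replicate 1 (0.052) or 2 (0.1) of the Twist guides or replicate 1 (0.058) or 2 (0.06) of the Snail guides. SerT, the serotonin transporter, was at 1.56 and 2.04 CPM in the control libraries and 5.08 and 4.99 CPM with both pools, a difference of 1.48 ± 0.25 (adjusted p = 0.011), not called without replicate 1 (0.096) or 2 (0.1) of both pools. These were the 2 of 12 tested pteridine and monoamine genes that rose, against 1.17% of all tested genes; none fell and the median was -0.04. vermilion (v), the tryptophan dioxygenase that opens the ommochrome path, was at 4.12 and 3.34 CPM in the control libraries and 9.16 and 10.7 CPM with both pools, a difference of 1.41 ± 0.22 (adjusted p = 0.0057), not called without replicate 2 (0.1) of both pools. It was the 1 of 29 tested amino acid genes that rose, against 1.17% of all tested genes; none fell and the median was -0.07.

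In lipid metabolism 1 of 44 tested genes rose and 1 fell, against 1.17% and 0.399% of all tested genes, with a median of 0.08. The lipophorin receptor LpR1 was at 1.92 and 1.39 CPM in the control libraries and 4.58 and 3.88 CPM with both pools, a difference of 1.35 ± 0.28 (adjusted p = 0.038), not called without replicate 1 (0.26) or 2 (0.16) of both pools, replicate 2 (0.056) of the control or replicate 1 (0.072) or 2 (0.073) of the Snail guides. DESeq2 did not call LpR1 (adjusted p = 0.15). CG3961, a predicted long-chain acyl-CoA synthetase that readies fatty acids for use, fell from 75.2 and 64.3 to 45.1 and 42.9 CPM, a difference of -0.66 ± 0.10 (adjusted p = 0.0045), not called without replicate 1 (0.066) or 2 (0.12) of both pools. Of 62 tested detoxification genes 2 rose, against 1.17% of all tested genes, and none fell, with a median of 0.12. Ugt86Da, a UDP-glycosyltransferase, was at 95.9 and 97.6 CPM in the control libraries and 134 and 154 CPM with both pools, a difference of 0.57 ± 0.10 (adjusted p = 0.012), not called without replicate 2 (0.21) of both pools. GstD3, a glutathione S-transferase of a cluster of near copies whose reads may be shared, was at 68.2 and 67.6 CPM in the control libraries and 87.5 and 95.2 CPM with both pools, a difference of 0.43 ± 0.08 (adjusted p = 0.021), not called without replicate 1 (0.09) or 2 (0.34) of both pools or replicate 1 (0.057) or 2 (0.057) of the Snail guides. Its libraries with Snail guides were higher still, at 113 and 108 CPM.

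No member passed in 3 other metabolic lists. The pentose phosphate list (9 tested, median -0.01) had as its smallest p-values the transaldolase Tal, at 333 and 261 CPM in the control libraries and 348 and 384 CPM with both pools (adjusted p = 0.22), and glucose-6-phosphate dehydrogenase Zw, at 69.5 and 67.9 CPM in the control libraries and 59.4 and 63.7 CPM with both pools (adjusted p = 0.37). In the list of serine, one-carbon and methionine metabolism (16 tested, median -0.11) these were CG6287, a phosphoglycerate dehydrogenase, at 20 and 20.3 CPM in the control libraries and 14.2 and 14.2 CPM with both pools (adjusted p = 0.064), and CG11899, a phosphoserine aminotransferase, at 35.4 and 27 CPM in the control libraries and 21.6 and 22.3 CPM with both pools (adjusted p = 0.071). In the purine and pyrimidine list (23 tested, median -0.06) they were the nucleoside kinase dnk, at 186 and 186 CPM in the control libraries and 153 and 151 CPM with both pools (adjusted p = 0.11), and the nucleoside diphosphate kinase awd, at 689.7 and 626 CPM in the control libraries and 565 and 496 CPM with both pools (adjusted p = 0.12).

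Outside the lists, a few transport and enzyme genes were picked after their values were seen. The alkaline phosphatase Aph-4 rose from 3.85 and 3.8 to 7.83 and 9.61 CPM, by 1.18 ± 0.23 (adjusted p = 0.021), not called without replicate 1 (0.068) or 2 (0.27) of both pools. CG6499 (Amt), an ammonium transporter, rose from 1.46 and 1.11 to 3.83 and 3.51 CPM, by 1.5 ± 0.32 (adjusted p = 0.039), not called without replicate 1 (0.25) or 2 (0.21) of both pools, replicate 2 (0.051) of the control or replicate 1 (0.059) or 2 (0.059) of the Snail guides. The organic cation transporter Orct2 rose from 75.8 and 68.3 to 97.1 and 95.5 CPM, by 0.42 ± 0.09 (adjusted p = 0.044), not called without replicate 1 (0.26) or 2 (0.34) of both pools, replicate 1 (0.062) or 2 (0.062) of the Twist guides or replicate 1 (0.072) or 2 (0.073) of the Snail guides. The metallothionein MtnA rose from 44.4 and 34 to 55.7 and 63.7 CPM, by 0.60 ± 0.13 (adjusted p = 0.047), not called without replicate 1 (0.13) or 2 (0.44) of both pools or replicate 1 (0.11) or 2 (0.11) of the Snail guides. mummy (mmy), which makes UDP-N-acetylglucosamine for chitin and glycans, fell from 60.1 and 60.6 to 46.9 and 44.8 CPM, a difference of -0.40 ± 0.09 (adjusted p = 0.044), not called without replicate 1 (0.25) or 2 (0.44) of both pools or replicate 1 (0.11) or 2 (0.11) of the Snail guides. DESeq2 called neither CG6499 (adjusted p = 0.14) nor mmy (adjusted p = 0.08).

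Lysosomal genes moved both ways. Of 52 listed hydrolases, transporters and membrane proteins of the lysosome, 31 passed the filter. Of these, 3 fell, against 0.399% of all tested genes, and 1 rose, while the list's median was 0.02 and 16 of 31 lay above 0. Cp1 (CtsL1, chromosome 2R, 13960675 to 13967981), the cathepsin L protease and the most abundant gene of the list, was at 3874 and 3295 CPM in the control libraries and 2245 and 2098 CPM with both pools. Both control libraries stood above the other 6, which ran from 1999 to 2398 CPM. The difference was -0.72 ± 0.10 (adjusted p = 0.0024), not called without replicate 2 (0.1) of both pools. Its differences of both pools from Twist guides, 0.03 (adjusted p = 0.9), and from Snail guides, -0.13 (adjusted p = 0.49), did not pass.

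Hexo2, a beta-hexosaminidase, was at 142 and 128 CPM in the control libraries and 103 and 94.7 CPM with both pools, a difference of -0.45 ± 0.08 (adjusted p = 0.014), not called without replicate 1 (0.091) or 2 (0.3) of both pools or replicate 1 (0.0504) or 2 (0.051) of the Snail guides. Its libraries with Snail guides stayed at the control level, 137 and 138 CPM, and both pools were lower than them, with a difference of -0.48 (adjusted p = 0.02), not called without replicate 1 (0.13) or 2 (0.31) of both pools or replicate 1 (0.24) or 2 (0.2) of the Snail guides. LManII (CG6206, chromosome 2L, 10457658 to 10462472), a lysosomal alpha-mannosidase, was at 8.06 and 12.3 CPM in the control libraries and 5.5 and 3.79 CPM with both pools, a difference of -1.12 ± 0.25 (adjusted p = 0.045), not called without replicate 1 (0.1) or 2 (0.42) of both pools, replicate 2 (0.066) of the control or replicate 1 (0.092) or 2 (0.092) of the Snail guides. CG3376, an acid sphingomyelinase that splits sphingomyelin to ceramide, was at 11 and 14.8 CPM in the control libraries and 41.6 and 33.8 CPM with both pools. It rose by 1.55 ± 0.15 (adjusted p = 0.00015), stood at 107 and 102 CPM with Twist guides and at 6.93 and 7.92 CPM with Snail guides, and differed from the first by -1.47 (adjusted p = 0.00011) and from the second by 2.34 (adjusted p = 6.4e-06). Abundant members that did not pass included cathD, the cathepsin D protease, at 1171 and 904 CPM in the control libraries and 987 and 981 CPM with both pools, and the saposin precursor Sap-r at 865 and 1204 CPM in the control libraries and 1158 and 1058 CPM with both pools.

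The matrix genes split as well. On a list of integrins, matrix proteases and basement membrane genes, 30 of 31 passed the filter, 4 rose and 2 fell, against 1.17% and 0.399% of all tested genes, with a median of 0.08. terribly reduced optic lobes (trol), the perlecan of the basement membrane, was at 11 and 15.1 CPM in the control libraries and 45.6 and 39.5 CPM with both pools, a difference of 1.71 ± 0.18 (adjusted p = 0.001). Mmp1, a secreted metalloproteinase that cuts matrix, was at 41 and 52.4 CPM in the control libraries and 74.1 and 76.2 CPM with both pools, a difference of 0.69 ± 0.11 (adjusted p = 0.0052), not called without replicate 2 (0.076) of both pools. Both were near control with Snail guides, at 10.6 and 13.4 CPM for trol and 50.7 and 49.5 CPM for Mmp1. The Mmp1 libraries with Twist guides alone were higher than those with both pools, at 112 and 108 CPM. The glypican dally, a surface proteoglycan that binds secreted signals, was at 10.8 and 16 CPM in the control libraries and 23 and 22.4 CPM with both pools, a difference of 0.76 ± 0.15 (adjusted p = 0.026), not called without replicate 1 (0.2) or 2 (0.19) of both pools or replicate 1 (0.052) or 2 (0.054) of the Snail guides. The fourth riser was the integrin chain if.

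SPARC (BM-40-SPARC, chromosome 3R, 26869238 to 26871995), a secreted protein that binds collagen IV, was the larger of the 2 falls called on the list. It was at 691 and 674 CPM in the control libraries and 381 and 325 CPM with both pools, a difference of -0.95 ± 0.16 (adjusted p = 0.032), not called without replicate 1 (0.1) or 2 (0.28) of both pools, replicate 1 (0.1) or 2 (0.13) of the control or replicate 1 (0.076) or 2 (0.077) of the Snail guides. With single pools it was at 547 and 787 CPM under Twist guides and 507 and 489 CPM under Snail guides, and both pools were lower than Twist guides, with a difference of -0.92 (adjusted p = 0.042), not called without replicate 1 (0.14) or 2 (0.44) of both pools, replicate 1 (0.078) or 2 (0.077) of the control, replicate 2 (0.077) of the Twist guides or replicate 1 (0.095) or 2 (0.096) of the Snail guides. Peroxidasin (Pxn), which crosslinks collagen IV, was at 105 and 100 CPM in the control libraries and 84 and 73.9 CPM with both pools, a difference of -0.37 ± 0.09 (adjusted p = 0.0496), not called without replicate 1 (0.12) or 2 (0.54) of both pools, replicate 1 (0.069) or 2 (0.069) of the Twist guides or replicate 1 (0.11) or 2 (0.11) of the Snail guides. Laminin A (LanA) shows how far the control pair could lie apart, with 727 and 1747 CPM in the control libraries and 1240.3 and 1136 CPM with both pools, and did not pass. The both-pools libraries lay between the 2 controls. Laminin B1 (LanB1) was at 255 and 313 CPM in control and 254 and 216 CPM with both pools, and the collagen IV gene viking (vkg) at 4.39 and 2.88 CPM in control and 6.08 and 4.62 CPM with both pools. Neither passed.

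Of 44 chitinase-like and hemolymph proteins 24 passed the filter. Of these, 1 rose and 1 fell, against 1.17% and 0.399% of all tested genes, with a median of -0.24 and 6 of 24 above 0. Idgf4, a chitinase-like growth factor, was at 0.824 and 1.3 CPM in the control libraries and 3.83 and 3.6 CPM with both pools, a difference of 1.80 ± 0.30 (adjusted p = 0.0099), not called without replicate 1 (0.094) or 2 (0.074) of both pools. It was at 15.6 and 13.5 CPM with Snail guides alone, and both pools were lower than that, with a difference of -1.96 (adjusted p = 0.00029). The libraries with Twist guides were at the control level, 0.914 and 1.1 CPM. Its relative Idgf3 was at 92.6 and 112 CPM in the control libraries and 77 and 69.6 CPM with both pools. GNBP3, a pattern recognition protein, was at 67.7 and 73.6 CPM in the control libraries and 47.7 and 50.2 CPM with both pools. In both genes each both-pools library lay below each control, and neither passed. The faller was Pxn. No serpin of 11 tested passed (median 0.14), with Spn5 (Spn88Ea) at 287 and 298 CPM in the control libraries and 230 and 240.4 CPM with both pools (adjusted p = 0.09) and Spn27A, a melanization inhibitor, at 39.5 and 35.5 CPM in the control libraries and 28.7 and 30.7 CPM with both pools (adjusted p = 0.13). Of 34 tested secreted ligands, 1 rose, pyr, against 1.17% of all tested genes; none fell and the median was 0.12.

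Further secreted and adhesion genes outside these lists were chosen after their values were seen. crossveinless 2 (cv-2), a secreted protein that binds BMPs, was at 56.3 and 50.6 CPM in the control libraries and 70.2 and 81.3 CPM with both pools, a difference of 0.50 ± 0.11 (adjusted p = 0.046), not called without replicate 1 (0.1) or 2 (0.48) of both pools or replicate 1 (0.085) or 2 (0.084) of the Snail guides. yellow-f, a secreted dopachrome-converting enzyme, was at 141 and 139.6 CPM in the control libraries and 104 and 112 CPM with both pools, a difference of -0.37 ± 0.08 (adjusted p = 0.041), not called without replicate 1 (0.32) or 2 (0.22) of both pools or replicate 1 (0.11) or 2 (0.11) of the Snail guides. l(1)G0193 (orion), a chemokine-like gene, was at 375 and 356 CPM in the control libraries and 289 and 299 CPM with both pools, a difference of -0.32 ± 0.07 (adjusted p = 0.049), not called without replicate 1 (0.33) or 2 (0.37) of both pools, replicate 1 (0.068) or 2 (0.067) of the Twist guides or replicate 1 (0.13) or 2 (0.13) of the Snail guides. Lachesin (Lac), an immunoglobulin protein of the septate junction, was at 43.6 and 41.6 CPM in the control libraries and 28.6 and 31.7 CPM with both pools, a difference of -0.50 ± 0.09 (adjusted p = 0.021), not called without replicate 1 (0.26) or 2 (0.12) of both pools or replicate 1 (0.057) or 2 (0.057) of the Snail guides. CG6199 (Plod), a lysyl hydroxylase that modifies collagen, was at 56.4 and 50.7 CPM in the control libraries and 70.8 and 75.2 CPM with both pools, a difference of 0.45 ± 0.10 (adjusted p = 0.049), not called without replicate 1 (0.23) or 2 (0.44) of both pools or replicate 1 (0.11) or 2 (0.1) of the Snail guides. Paxillin (Pax), an adaptor of integrin adhesions, was at 293 and 286 CPM in the control libraries and 389 and 395 CPM with both pools, a difference of 0.44 ± 0.08 (adjusted p = 0.015), not called without replicate 1 (0.12) or 2 (0.2) of both pools. Socs36E, a feedback inhibitor of JAK/STAT signalling, was at 140.2 and 125 CPM in the control libraries and 182 and 201 CPM with both pools, a difference of 0.53 ± 0.09 (adjusted p = 0.0084), not called without replicate 2 (0.17) of both pools.

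**Figure D4:**
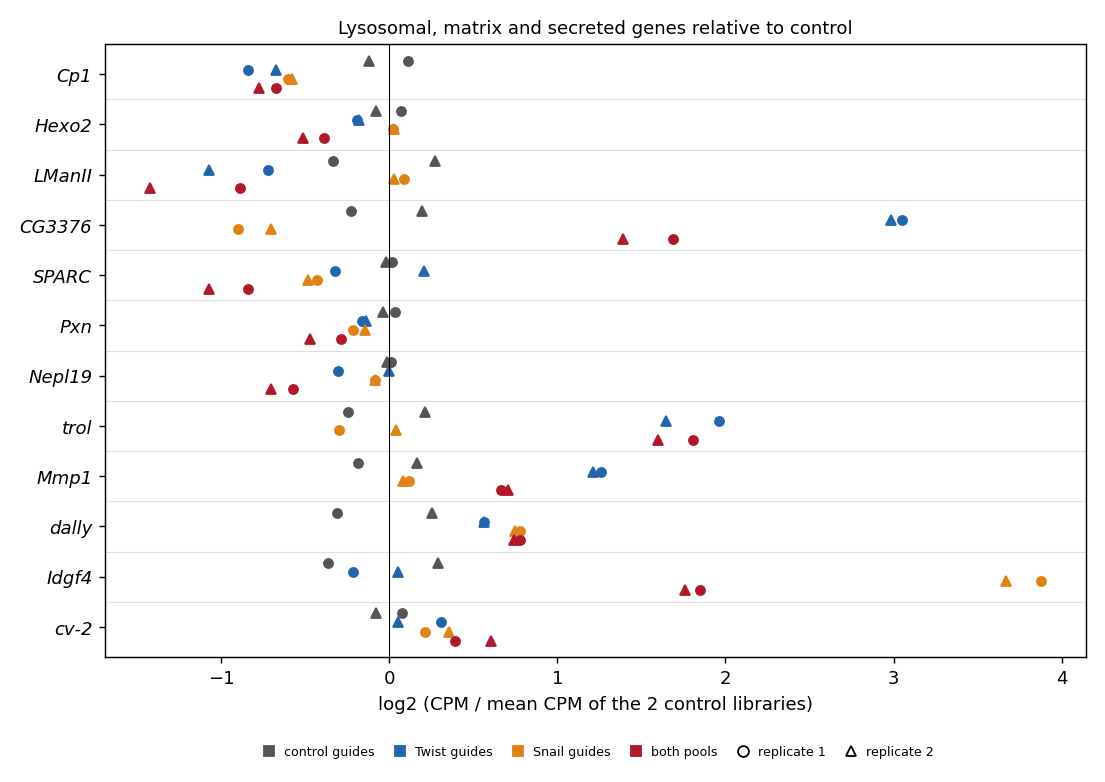
Level of 12 lysosomal, matrix and secreted genes in each library as log2 of CPM over the mean of the 2 control libraries, with colours and symbols by group and replicate. The red points of Cp1, Hexo2, LManII, SPARC, Pxn and Nepl19 lie left of the control line and those of the other 6 genes to the right. The orange points of Idgf4 and the blue points of CG3376 and Mmp1 lie beyond the red.

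The other large falls were of mixed function. CG6805, an inositol polyphosphate 5-phosphatase, was at 71.8 and 72.8 CPM in the control libraries and 40.3 and 39.5 CPM with both pools. The replicates lay close together on each side, and the difference was -0.86 ± 0.10 (adjusted p = 0.00053). Its single-pool libraries lay between, at 48.1 and 57.5 CPM with Twist guides and 48.1 and 48 CPM with Snail guides. CG3091 was at 31.6 and 36.4 CPM in the control libraries and 17.5 and 18.1 CPM with both pools, a difference of -0.93 ± 0.16 (adjusted p = 0.014), not called without replicate 1 (0.16) or 2 (0.16) of both pools. CG33926 was at 117 and 126 CPM in the control libraries and 71.5 and 83.9 CPM with both pools, a difference of -0.64 ± 0.11 (adjusted p = 0.011), not called without replicate 1 (0.18) of both pools. Mec2, a stomatin-like membrane protein gene, was at 290.3 and 299 CPM in the control libraries and 206 and 184 CPM with both pools, a difference of -0.59 ± 0.11 (adjusted p = 0.032), not called without replicate 1 (0.12) or 2 (0.37) of both pools or replicate 2 (0.059) of the control. CG31075, a predicted aldehyde dehydrogenase, was at 53 and 49.4 CPM in the control libraries and 35.5 and 33.8 CPM with both pools, a difference of -0.56 ± 0.10 (adjusted p = 0.014), not called without replicate 1 (0.12) or 2 (0.25) of both pools.

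Another 5 of the 15 largest falls, CG14629, CG6126, CG8547, CG42663 and CG1998, fell by 0.52 to 0.63 on the log2 scale, with control levels from 24.9 CPM in CG14629 to 96.8 CPM in CG42663. All 5 were called with every library in the fit and none without replicate 1 or without replicate 2 of both pools. Those adjusted p-values ran from 0.067 to 0.4. Without replicate 1 or 2 of the Snail guides, 4 of the 5, all but CG42663, were not called (0.0504 to 0.098). DESeq2 did not call CG1998 (adjusted p = 0.097). Act42A, a cytoplasmic actin, was at 3411 and 3673 CPM in the control libraries and 2606 and 2455 CPM with both pools, a difference of -0.49 ± 0.09 (adjusted p = 0.017), not called without replicate 1 (0.14) or 2 (0.34) of both pools or replicate 1 (0.057) or 2 (0.057) of the Snail guides. Actin genes are near copies, so its count is uncertain. bys, of ribosome assembly, was at 45.3 and 49.3 CPM in the control libraries and 35.8 and 31.7 CPM with both pools, a difference of -0.49 ± 0.10 (adjusted p = 0.038), not called without replicate 1 (0.12) or 2 (0.44) of both pools or replicate 1 (0.074) or 2 (0.074) of the Snail guides. Act42A and bys were chosen after their values were seen.

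Of the genes that differed from control, 5 also differed in the same direction from each single pool. They were picked after their values were seen, and the 3 comparisons share the both-pools libraries. nemy, a cytochrome b561 gene, was at 5.31 and 3.62 CPM in the control libraries and 10.3 and 8.96 CPM with both pools, with 5.49 and 4.04 CPM with Twist guides and 4.59 and 3.92 CPM with Snail guides. Both pools lay above every other library. The difference from control was 1.11 ± 0.23 (adjusted p = 0.034), not called without replicate 1 (0.26) or 2 (0.16) of both pools or replicate 1 (0.06) or 2 (0.061) of the Snail guides. From Twist guides it was 1.02 (adjusted p = 0.048) and from Snail guides 1.18 (adjusted p = 0.036). CG6424 was at 129 and 132 CPM in the control libraries and 186 and 196 CPM with both pools, with 147 and 129 CPM with Twist guides and 120 and 129 CPM with Snail guides. CG6424 differed from control by 0.55 ± 0.08 (adjusted p = 0.0048), not called without replicate 2 (0.1) of both pools. The differences from Twist guides and Snail guides were 0.47 (adjusted p = 0.025) and 0.62 (adjusted p = 0.0041). CG3764 was at 78.6 and 72.8 CPM in the control libraries and 99.8 and 95 CPM with both pools, with 73.4 and 71.2 CPM with Twist guides and 68.4 and 72.2 CPM with Snail guides. Against control CG3764 gave 0.36 ± 0.08 (adjusted p = 0.047), not called without replicate 1 (0.3) or 2 (0.3) of both pools, replicate 1 (0.066) or 2 (0.066) of the Twist guides or replicate 1 (0.11) or 2 (0.11) of the Snail guides. Against Twist guides and Snail guides it gave 0.43 (adjusted p = 0.031) and 0.47 (adjusted p = 0.021). DESeq2 called neither nemy (adjusted p = 0.052) nor CG3764 (adjusted p = 0.078) against control.

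The other 2 were lower. Nepl19 (CG14523), a neprilysin-like peptidase gene, was at 144 and 142 CPM in the control libraries and 96.1 and 88 CPM with both pools, with 116 and 143 CPM with Twist guides and 135 and 135 CPM with Snail guides. Against control Nepl19 gave -0.64 ± 0.10 (adjusted p = 0.0048), not called without replicate 2 (0.13) of both pools. Against Twist guides and Snail guides it gave -0.49 (adjusted p = 0.033) and -0.55 (adjusted p = 0.021). SelD (Sps1), a selenophosphate synthetase gene, was at 161 and 160.1 CPM in the control libraries and 131 and 115 CPM with both pools, with 157 and 178 CPM with Twist guides and 177 and 168 CPM with Snail guides. SelD differed from control by -0.39 ± 0.09 (adjusted p = 0.0496), not called without replicate 1 (0.12) or 2 (0.55) of both pools or replicate 1 (0.11) or 2 (0.11) of the Snail guides. The differences from Twist guides and Snail guides were -0.44 (adjusted p = 0.034) and -0.49 (adjusted p = 0.024). In both genes the both-pools libraries lay below all 6 others. Against Twist guides, none of the 5 genes was called without either replicate of both pools (0.11 to 0.47), replicate 2 of the Twist guides (0.4 to 0.59) or either replicate of the Snail guides (0.058 to 0.091), and CG3764 was also not called without replicate 1 of the Twist guides (0.052). Against Snail guides, none was called without replicate 2 of both pools (0.095 to 0.35) or replicate 1 of the Snail guides (0.16 to 0.34), and CG6424 alone was called without replicate 1 of both pools or replicate 2 of the Snail guides (0.095 to 0.27 in the other 4).

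Over all tested genes, 1.17% rose and 0.399% fell. Of 18 tested hemocyte markers, 1 rose and 1 fell (median 0.01), and the summed level of the list was 2323 and 2602 CPM in control and 2482 and 2493 CPM with both pools. The riser was Amalgam (Ama), a secreted immunoglobulin protein, at 3.39 and 2.88 CPM in the control libraries and 6.5 and 7.2 CPM with both pools, a difference of 1.12 ± 0.22 (adjusted p = 0.023), not called without replicate 1 (0.12) or 2 (0.25) of both pools. DESeq2 did not call Ama (adjusted p = 0.057). Of 16 neuronal and glial genes, acj6 and the adhesion gene Neuroglian (Nrg) rose and none fell (median 0.13, and 0.00 with the length correction), with sums of 738 and 868 CPM in control and 809 and 761 CPM with both pools. The pan-neuronal gene elav was at 7.6 and 8.81 CPM in control and 8.41 and 8.41 CPM with both pools, and the glial gene repo at most 0.0928 CPM in these 4 libraries. Nrg was at 36.9 and 40.5 CPM in the control libraries and 61.5 and 57.6 CPM with both pools, a difference of 0.62 ± 0.09 (adjusted p = 0.0036), not called without replicate 1 (0.069) of both pools. It was also the 1 of 25 epithelial junction and polarity genes that rose; none fell and the median was -0.11. E-cadherin (shg), which Snail represses in the embryo, was at 16.6 and 23.5 CPM in control and 19.7 and 16.9 CPM with both pools and did not pass.

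No muscle gene of 17 tested passed (median 0.06), and the myosin gene Mhc had no counts in 3 of these 4 libraries and 0.0924 CPM in the other. The smallest p-values were of TpnC41C, a troponin C gene, at 1.1 and 0.557 CPM in the control libraries and 1.75 and 2.22 CPM with both pools (adjusted p = 0.17), and tmod, tropomodulin (-0.27, adjusted p = 0.24). No germline or ovarian gene of 17 passed (median 0.05), with nos at 1.1 and 0.928 CPM in the control libraries and 2.33 and 2.22 CPM with both pools (adjusted p = 0.15) and tj at 0.824 and 1.11 CPM in the control libraries and 1.5 and 2.68 CPM with both pools (adjusted p = 0.22). Of fat body and gut markers 2 had enough counts to test, the lipophorin precursor Rfabg (adjusted p = 0.4) and the protease gene Try29F (adjusted p = 0.47).

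Of 25 heat shock and unfolded protein genes 1 rose, against 1.17% of all tested genes, and none fell (median 0.04). It was Thor, the translation inhibitor 4E-BP, at 51.2 and 52 CPM in the control libraries and 68.8 and 78.5 CPM with both pools, a difference of 0.51 ± 0.10 (adjusted p = 0.026), not called without replicate 1 (0.068) or 2 (0.37) of both pools or replicate 1 (0.057) or 2 (0.057) of the Snail guides. No gene passed among 21 of the JNK pathway and cell death (median -0.05), with Gadd45 at 72.7 and 51.3 CPM in the control libraries and 81.6 and 92.4 CPM with both pools (adjusted p = 0.24) and dnr1 at 52.4 and 49.5 CPM in the control libraries and 40.1 and 42 CPM with both pools (adjusted p = 0.15). None passed among 15 ecdysone response genes (median -0.07), with Eip63E (adjusted p = 0.088) and ImpE3 (adjusted p = 0.17) lowest in p. None of 30 cell cycle and replication genes passed, and 5 of 30 lay above 0 (median -0.15), with Mcm7, of the replicative helicase, at 96.9 and 108 CPM in the control libraries and 83.3 and 75.6 CPM with both pools (adjusted p = 0.09) and cdc2 at 47.3 and 49.5 CPM in the control libraries and 37 and 38.4 CPM with both pools (adjusted p = 0.094).

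None of 83 cytosolic ribosomal protein genes passed either, while 81 of 83 lay above 0 (median 0.15, and 0.15, 0.13 and 0.17 with DESeq2 size factors, library size alone and the length correction). The list's summed level was 172757 and 145568 CPM in the control libraries and 176420.1 and 178181 CPM with both pools. Control replicate 1 stood with the both-pools libraries and control replicate 2 below them. RpL35 was at 2007 and 1939 CPM in the control libraries and 2251 and 2308 CPM with both pools (adjusted p = 0.23), and RpS19b, whose reads may be shared with a near copy, at 44.2 and 30.6 CPM in the control libraries and 55.8 and 64.1 CPM with both pools (adjusted p = 0.2). DESeq2 called RpS19b (adjusted p = 0.025).

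**Figure D5:**
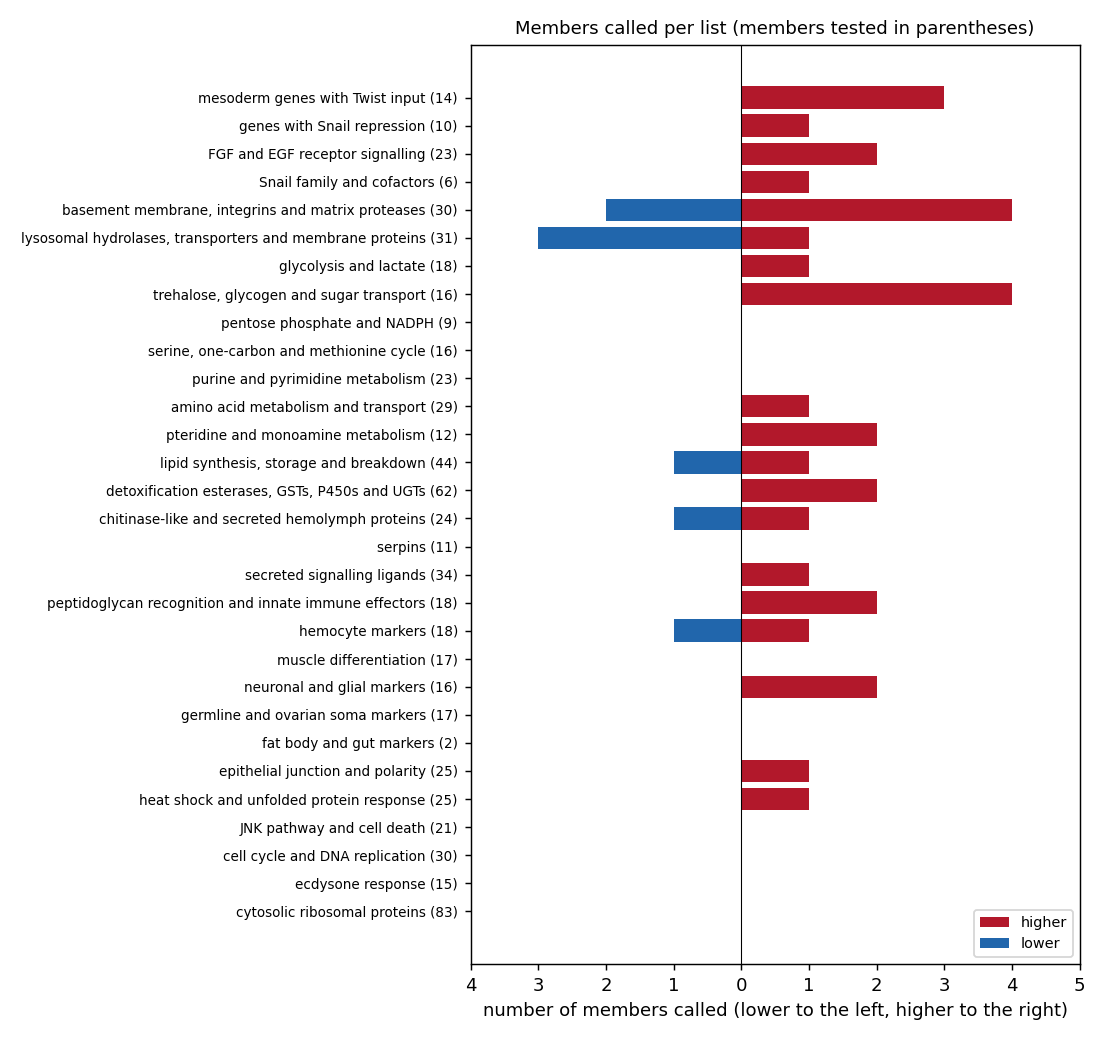
Number of tested members called lower (blue, to the left) and higher (red, to the right) with both pools against control guides in each of 30 lists, with the number tested in parentheses. The most rises in a list are 4, in trehalose, glycogen and sugar transport and in the matrix list, and the most falls are 3, in the lysosomal list. Lists overlap, and 33 of the 126 called genes were in at least 1.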

How the data were processed

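Each of the 8 libraries has a deposited table of raw counts by gene symbol, which the authors made with TopHat2, Bowtie2, HTSeq and DESeq per the submitters' processing notes. No build, count mode or strand setting is stated in the sources used here. The series calls the 2 libraries of a group biological replicates. The p-values rest on the spread between replicates pooled over all 4 groups. Those for both pools against control therefore also draw on the Twist-guide and Snail-guide pairs. Of 14161 listed genes, 8029 passed filterByExpr (minimum count 10) and 6132 did not; at least 99.93% of counts were kept. TMM factors (0.983 to 1.02) and a quasi-likelihood fit with robust priors, all 8 libraries in 4 groups (edgeR 4.0.16, limma 3.58.1, R 4.3.3; 4 residual degrees of freedom) gave log2 differences ± SE and p-values adjusted by Benjamini-Hochberg within each comparison. Every adjusted p is from edgeR's quasi-likelihood test unless DESeq2 1.42.0 is named. Levels are CPM (counts scaled by library size and TMM). In a library, 3 counts are 0.22 to 0.278 CPM; intervals and floors cover counting error only. Positions are from Ensembl 115 (BDGP6.54), matched by symbol (10669 current, 2955 older, 537 unmatched), and no sequences were used. Transcript lengths were matched for 97.2% of tested genes. Lists (1037 written entries, 12 not found) and members were chosen with earlier results of these data known. The genes named were twi and sna, the 20 largest rises and 15 largest falls that passed with non-overlapping groups and a mean of at least 1 CPM in the higher group, every metabolic, lysosomal or secreted member that passed, up to 4 from each other list, and 2 with the smallest p as values only where none passed. Another 26 genes were chosen after their values were seen. The list members otherwise named beside them are values only. Settings tried as alternatives were the normalisation, the filter, the test, the threshold, the samples in the fit, the replicate block, length and each library left out; where a group was left with 1 library, its spread was taken from the other groups. The fit was tested on simulated data. Figures used matplotlib 3.10.9.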

Additional observations from a re-analysis of the deposited data

How the results depend on the processing

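Counts of calls are given as higher and lower for both pools against control guides, Twist guides and Snail guides in that order, with 94 and 32, 40 and 44, 57 and 16 in the reported fit (126, 84 and 73 in all). No filter gave 210 and 143, 171 and 248, 314 and 122 (353, 419 and 436). DESeq2 gave 101 and 61, 63 and 92, 147 and 33 (162, 155 and 180). A fit of only the groups compared gave 44 and 12, 329 and 381, 1018 and 531 (56, 710 and 1549). A threshold of 0.01 gave 39 and 4, 7 and 7, 14 and 1 (43, 14 and 15). A test against a fold of 1.5 gave 19 and 0, 5 and 4, 9 and 1 (19, 9 and 10). The transcript length correction gave 115 and 47, 67 and 90, 64 and 40 (162, 157 and 104). With DESeq2 size factors, library size alone or a filter of 1 CPM in 2 libraries, the counts for both pools against control were within 1.5 times the reported ones. With 1 library left out they ran from 28 to 466 higher and 2 to 682 lower (30 to 1148) against control, from 4 to 466 and 3 to 511 (9 to 977) against Twist guides, and from 8 to 758 and 1 to 378 (9 to 1136) against Snail guides. The causes were not tested.

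The replicate block gave 84 and 35, 46 and 52, 46 and 7 (119, 98 and 53), with 104 of its 119 calls against control shared with the 126. Same-numbered libraries did not deviate together (correlations of deviations from group means -0.007, -0.054 and -0.027), so the numbers were not taken to pair them. Of 78 named genes called against control, 10 were not called under the block, 8 with DESeq2, 3 with the length correction (CG3764, Rbp6 and cv-2), 42 in a fit of only the groups compared, 50 or 56 without replicate 1 or 2 of both pools and 31 without either replicate of the Snail guides, and none changed sign. Depth limits genes under about 1 CPM, where 3 counts are 0.22 to 0.278 CPM.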
